A study of Mus musculus with 15 samples.

Results

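Testis small RNA that had been treated with CMC was compared with mock-treated testis small RNA, 3 samples against 3, chosen by the treatment named in the sample labels. These are 6 of the 15 samples of the study. All 6 came from whole testis of male C57Bl/6 mice aged 8 weeks, and the RNA was cut from a gel between 17 and 40 nt before the libraries were made. The mock-treated samples are called untreated in their titles and mock treated in their treatment field, and the labels do not say whether the replicates came from separate animals, so the p-values below measure only the spread between these samples. The unit of the files is the locus, a stretch of the mm10 mouse genome with a start, an end and a strand, covered by reads of exactly that extent in a piRNA cluster. The 6 samples held 4808586 loci of 14 to 33 nt together, and their total counts ranged from 24154811 to 58399368.

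piRNAs are small RNAs of the animal germline that bind PIWI proteins and guide the silencing of transposons. In the adult testis most of them are pachytene piRNAs, cut from long transcripts of a limited number of genomic clusters; MIWI binds the longer and MILI the shorter ones, and both prefer a uridine at the first base. Pseudouridine (Ψ) is an isomer of uridine. CMC is a carbodiimide that attaches to uridine, guanosine and Ψ, and an alkaline incubation then takes it off uridine and guanosine more readily than off Ψ; a base that still carries CMC blocks reverse transcriptase, so that an RNA with the adduct is lost from the library. The comparison therefore asks which small RNAs became rarer after CMC. Fragments of tRNA, which carry Ψ at known places, were not analysed here, so these counts hold no check of how far CMC stayed on Ψ or came off uridine and guanosine.

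Sequence could be read for loci that lie wholly within an annotated exon, which were 22.3% of all loci and 92056 (16.5%) of the 556583 loci with more than 20 counts in total. They held 13.2, 13.3 and 13.3% of all counts in the mock-treated and 13.2, 13.2 and 13.3% in the CMC-treated samples. Everything below on bases describes these exonic loci only. The 4 most abundant exonic loci of at most 30 nt outside UTRs that were lower after CMC, and the 4 that were higher, are printed 5′ to 3′ with uridine in capitals, because the number of uridines is what the first result turns on.
chr8:93419670-93419699, minus strand, lower: UcUUUccgUgUgUgcUgUgacaUUUUgUcc
chr8:93419671-93419699, minus strand, lower: UcUUUccgUgUgUgcUgUgacaUUUUgUc
chr5:149803834-149803861, minus strand, lower: UUggaagUcgUgagUUUggaUgUgggga
chr6:127807969-127807998, plus strand, lower: UaUUgacUUcUgUUaaaUccUgUacUgaUc
chr14:24088877-24088897, plus strand, higher: UaacaUUgUagacaggcacaa
chr10:62665231-62665260, plus strand, higher: gUUUcagaccaUgggUcUUcUgaacggcgU
chr15:83356249-83356274, minus strand, higher: UUUcacagaUgaggaaacUgaagcUU
chr17:27355734-27355756, plus strand, higher: UcggaacUUgUaUcUUgUgagac

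The lower loci held 14, 14, 9 and 13 uridines and the higher loci 4, 9, 7 and 8. The chromosome 8 loci share their 5′ end and lie in an exon of the lincRNA Gm30132. The chromosome 5 locus lies in an exon of the lincRNA Gm21221, and the chromosome 6 locus in the endogenous retrovirus MMERGLN-int, antisense to an exon of Gm42811. Of the higher loci, that of chromosome 14 lies in the annotated exon of Mir7210, that of chromosome 17 in an exon of the lincRNA Gm49794 that also holds Mir7217, that of chromosome 15 in a MIRb element within an exon of 1700001L05Rik, and that of chromosome 10 antisense to coding sequence of Stox1.

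The 30-nt chromosome 8 locus was at 494, 587 and 602 CPM (counts scaled to a library total of 1000000, with TMM, a correction for library composition) in the mock-treated samples and at 318, 299.5 and 330.5 in the CMC-treated samples. Every CMC-treated sample lay below every mock-treated sample, and the log2 fold change was −0.83 (SE 0.11, edgeR adjusted p 5.8e-07). The chromosome 6 locus went from 242, 247 and 245 CPM to 205, 157 and 159 CPM (−0.49, SE 0.11, edgeR adjusted p 0.0054). Among the higher loci, the 21-nt locus in the exon of Mir7210 went from 53.9, 54.0 and 58.6 CPM to 73.6, 106 and 124 CPM (0.86, SE 0.13, edgeR adjusted p 1.4e-05), and the MIRb locus from 32.8, 29.5 and 27.2 CPM to 47.3, 50.9 and 43.6 CPM (0.66, SE 0.12, edgeR adjusted p 0.00028). The groups did not overlap in any of these 4 loci.

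Exonic loci with many uridines took a smaller share of the exonic counts after CMC and exonic loci with few a larger share, in a graded order. Uridine made up 30.4, 30.6 and 30.3 of every 100 sequenced bases of exonic loci in the mock-treated samples and 29.1, 29.1 and 28.9 in the CMC-treated samples, means of 30.4 ± 0.17 and 29.04 ± 0.11 (SD, n = 3 each). The difference was −1.40, with p = 0.1 in a two-sided exact permutation test, below which 3 against 3 samples cannot go. Adenosine went from 26.2, 25.8 and 25.9 to 27.1, 26.9 and 26.8 of every 100 bases, a difference of 0.96, and cytidine from 18.6, 18.8 and 18.7 to 18.8, 19.1 and 19.5, a difference of 0.46 (the same p of 0.1 in the exact test for each). The groups did not overlap for these 3 bases. Guanosine was at 24.8, 24.8 and 25.1 against 24.9, 24.9 and 24.8 (difference −0.02, exact p = 0.8).

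Loci with 4 uridines took 3.68, 3.52 and 3.74% of the counts of exonic loci in the mock-treated samples and 4.47, 4.72 and 4.85% in the CMC-treated samples. Loci with 9 uridines took 12.3, 12.4 and 12.3% against 12.1, 12.5 and 12.3%, which overlap. Loci with 14 uridines took 2.93, 3.07 and 2.81% against 2.06, 2.03 and 1.86%, and loci with 17 uridines 0.253, 0.248 and 0.229% against 0.139, 0.124 and 0.106%. For 14 and for 17 uridines every CMC-treated sample was below every mock-treated sample. Fitted with edgeR over classes of loci by their number of uridines, a fit added after the pattern had been seen, the log2 fold change ran from 0.65 (SE 0.19) at 0 uridines through 0.36 (SE 0.046) at 4, −0.01 (SE 0.025) at 9, −0.29 (SE 0.040) at 12 and −0.57 (SE 0.059) at 14 to −0.99 (SE 0.16) at 17, −1.47 (SE 0.19) at 20 and −2.02 (SE 0.24) at 22. Of the 23 classes, from 0 to 22 uridines, 9 were called higher (39.1%) and 13 lower (56.5%) at an adjusted p under 0.01, and the class of 9 uridines was not called. With the replicate number as a block 22 were called too. Classes by number of adenosines ran the other way, with 5 lower (19.2%) and 7 higher (26.9%) of 26, from −0.57 at 0 adenosines to 0.49 at 18 and 0.997 at 24, a class of 150 counts that was not called with the block, which called 17. Of the 19 classes by cytidine 1 was lower (5.26%) and 6 were higher (31.6%), and 1 was called with the block. None of the 20 classes by guanosine was called by edgeR with or without the block, and 1 had an unadjusted p under 0.05. The bases of a locus share its length, so these 4 series are not independent. The classes of a series also share one total of counts, so a fall in some raises the share of the rest. Higher and lower are relative to that total.

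**Figure D1:**
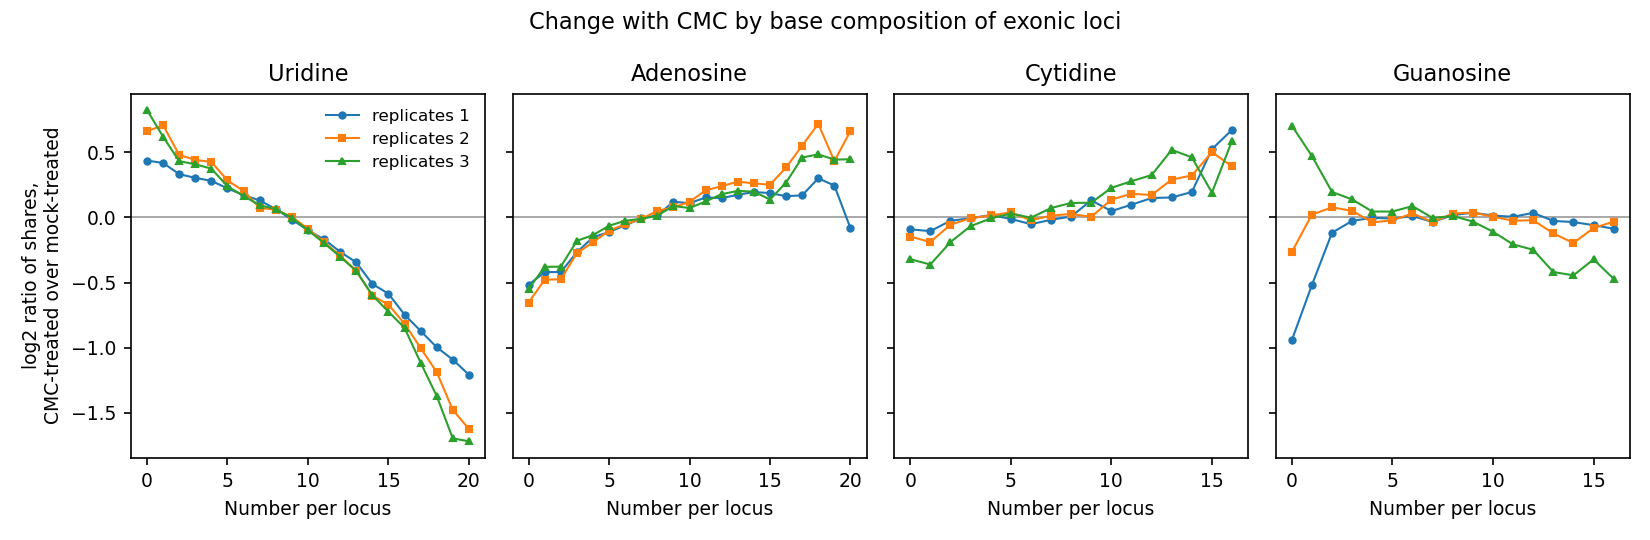
The log2 ratio of shares of exonic counts, CMC-treated over mock-treated (vertical axis), is plotted against the number of each base in the locus (horizontal axis, 1 panel per base), with a line for the samples that share each replicate number. All 3 lines fall with the number of uridines, crossing 0 near 9, and the line of the first replicates falls least at 20 uridines. The guanosine lines lie near 0 between 4 and 9 guanosines and part from each other outside that range.

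The call of single loci followed the same order. Across all 556583 tested loci, 0.654% were called lower and 1.07% higher (edgeR adjusted p under 0.01); with total counts in place of TMM the numbers moved from 3640 lower and 5979 higher to 2657 and 7022, without mock-treated replicate 2 to 1265 and 3241, and without CMC-treated replicate 2 to 1539 and 4159. Without mock-treated replicates 1 and 3, each in turn, the lower loci were 2336 and 2177, and with the replicate block 5709. When only the 50099 loci in and outside exons that averaged 100 counts or more were fitted, the balance turned, with 1969 lower and 1676 higher. In the fit of all tested loci, the lower share among loci with such an average was close to that of the exonic ones. It is given below with the chromosomes. Among the 6771 exonic loci that averaged 100 counts or more, 5.14% were called lower and 1.77% higher in the fit of all tested loci. Of 983 such loci with 0 to 5 uridines none was called lower, of 2493 with 6 to 8 uridines 0.0401%, of 2302 with 9 to 11 uridines 1.87%, of 841 with 12 to 14 uridines 22.7%, and of 152 with 15 or more 74.3%. All 21 loci with 17 uridines, all 11 with 18, all 7 with 19 and the 1 with 20 were called lower. The share called higher went from 5.60% at 0 to 5 uridines through 1.52, 0.999 and 0.476% to 0 of 152 at 15 or more.

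The fold change of a locus had a Spearman correlation of −0.69 with its number of uridines over these 6771 loci, against 0.42 with adenosines, 0.18 with cytidines, −0.01 with guanosines, −0.16 with its length and −0.08 with its average count. Within single lengths from 26 to 31 nt the correlation with uridines ran from −0.61 to −0.75. At a fixed number of uridines, the correlation with guanosines lay between −0.41 and −0.31 that with cytidines between 0.25 and 0.38 and that with adenosines between −0.06 and 0.17. These are descriptions across loci of the same 6 libraries, and loci that overlap share bases.

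The fall in uridine stood in every subset tried. It ranged from −1.20 to −1.47 per 100 bases over the 9 lengths from 24 to 32 nt, was −1.31 on the plus and −1.50 on the minus strand, and −1.35 within repeats and −1.40 outside them. It was −1.53 in UTRs and −1.37 elsewhere in exons. Over 17 chromosomes it ranged from −0.65 on chromosome 12 to −2.62 on chromosome 8, which holds the Gm30132 loci printed above. In each of these subsets every CMC-treated sample lay below every mock-treated sample.

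The difference was met at every position of the piRNA, in medians that were not taken at equal numbers of uridines. A uridine at any position also counts in the total of its locus. A gap at a position therefore cannot be told apart from the number of uridines. At each of the first 26 bases of 5926 abundant exonic loci, those with uridine there had a lower median log2 fold change than the mean of the medians for the other bases, by between 0.07 and 0.15, and position 2 had the largest gap, with a median of −0.20 for uridine, −0.05 for adenosine, −0.01 for cytidine and −0.09 for guanosine. First-base uridine, the mark of primary piRNAs, was found on 85.8, 85.9 and 85.4% of exonic counts in the mock-treated and 84.3, 84.8 and 83.4% in the CMC-treated samples, without overlap (difference −1.54 points, exact p = 0.1). Adenosine at position 10, the mark of secondary piRNAs, went from 30.1, 29.2 and 29.7% to 31.5, 30.6 and 31.1%, also without overlap (1.41 points, exact p = 0.1). Adenosine also rose over all bases of exonic loci, by 0.96 per 100 bases, so the rise was not particular to position 10. UNUAR, the motif of the pseudouridine synthase PUS7 (N is any base, R is A or G, searched on the strand of the locus), was found in 1768 of the 6771 loci (26.1%), with a median log2 fold change of −0.17 against −0.05 in loci without it. A locus with the motif holds at least 2 uridines by its letters, and at equal numbers of uridines the medians were closer. They were lower with the motif in the 8 classes from 5 to 12 uridines, most at 9 uridines (−0.16 with and −0.08 without it), and higher with it at 13 (−0.47 and −0.48) and 14 (−0.59 and −0.64). Loci with a run of 4 or more uridines and loci whose longest run was 2 or fewer had medians that differed in either direction at equal numbers of uridines, −0.23 and −0.18 at 10 uridines, −0.23 and −0.28 at 11, −0.49 and −0.49 at 13 and −0.64 and −0.59 at 14.

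**Figure D2:**
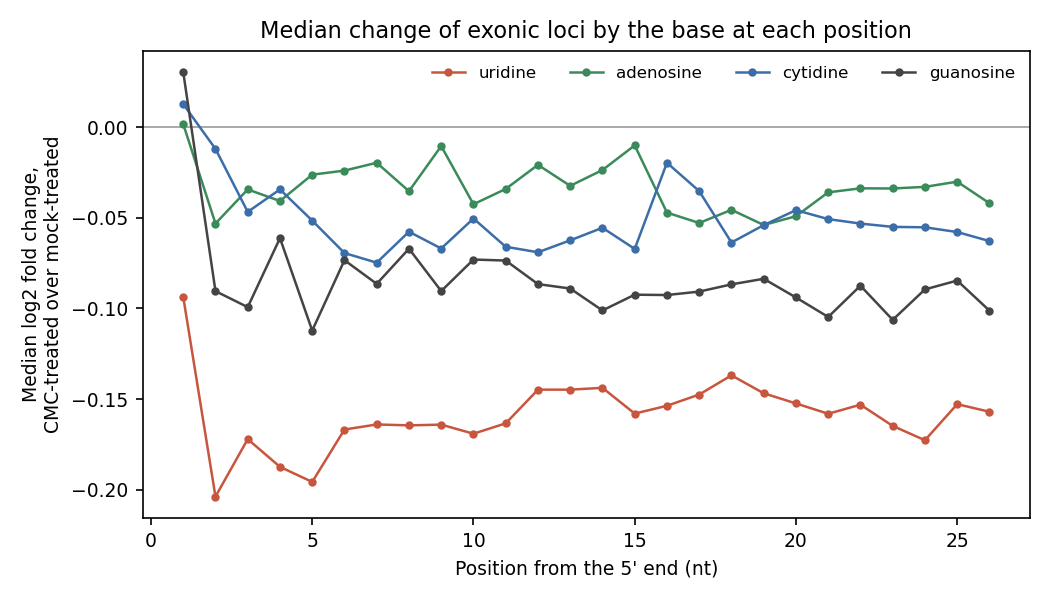
The median log2 fold change of exonic loci that averaged 100 counts or more (vertical axis) is plotted by the base found at each of the first 26 positions from the 5′ end (horizontal axis), a line for each base. The uridine line is lowest at every position and reaches −0.20 at position 2. The medians are not taken at equal numbers of uridines.

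Most of the 5′ ends that rose after CMC lay just downstream of far more abundant 5′ ends. Counts were summed over all loci that share a 5′ end, and 251226 such ends had more than 20 counts; 1.03% (2580) were called lower and 1.16% (2924) higher with edgeR. With total counts the split moved to 1668 lower and 3676 higher, since the median log2 fold change of all ends went from 0.01 to 0.10; without mock-treated replicate 2 the counts were 1150 and 1763, and without CMC-treated replicate 2 they were 1202 and 2039. The lower ends were also 1717, 1593 and 1586 without mock-treated replicate 1, mock-treated replicate 3 and CMC-treated replicate 3, and 4182 (with 2867 higher) without CMC-treated replicate 1. The lower ends were also the more numerous with DESeq2, at 2315 against 1942 higher, and among ends that averaged 100 counts or more, at 1775 against 850. Of the 2924 higher ends, 2318 (79.3%) lay 1 to 5 nt downstream of a 5′ end with at least 10 times the counts, against 14.8% of all tested ends and 1.82% (47) of the lower ends. With the replicate block the share was 78.7% of 2521 higher ends. With a neighbour of at least 100 times the counts it was 51.5% of the 2924, against 4.67% of all tested ends. The same distance upstream held 217 higher ends (7.42%, against 12.9% of those tested). The other 389 higher ends (13.3%) had no neighbour with at least 10 times their counts, against 72.3% of those tested. The neighbour of a higher end, the most abundant 5′ end within 5 nt, had a median of 125 times its counts, that of a lower end 0.87 times and that of any tested end 2.10 times. Lower ends were more abundant, with a median of 10.9 CPM in the mock-treated samples against 0.261 for higher ends and 0.295 for all tested ends, so that fewer of them could have a neighbour with 10 times their counts. These shares were worked out after the calls had been seen.

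The share of ends called higher fell with the distance, from 12% at 1 nt downstream through 7.72, 4.47 and 3.46% at 2, 3 and 4 nt to 1.39% at 5 nt, and it was 1.03% at 1 nt upstream and 0.29% at 5 nt upstream. The median log2 fold change of all such ends fell likewise, from 0.57 at 1 nt downstream to 0.12 at 5 nt, and was 0.06 at 1 nt upstream. Ends 1 to 5 nt downstream held 2.68, 2.75 and 2.74% of all counts in the mock-treated samples and 3.50, 3.67 and 3.92% in the CMC-treated samples, a ratio of 1.36. At 1 nt the share was 0.550, 0.561 and 0.565% against 0.875, 0.911 and 0.980%, a ratio of 1.65, and the groups did not overlap. Ends 1 to 5 nt upstream held 2.78, 2.78 and 2.71% against 2.85, 2.88 and 2.90%, a ratio of 1.04, also without overlap. These distances were chosen after the higher ends had been seen to lie there, so the shares are a description and were not tested.

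**Figure D3:**
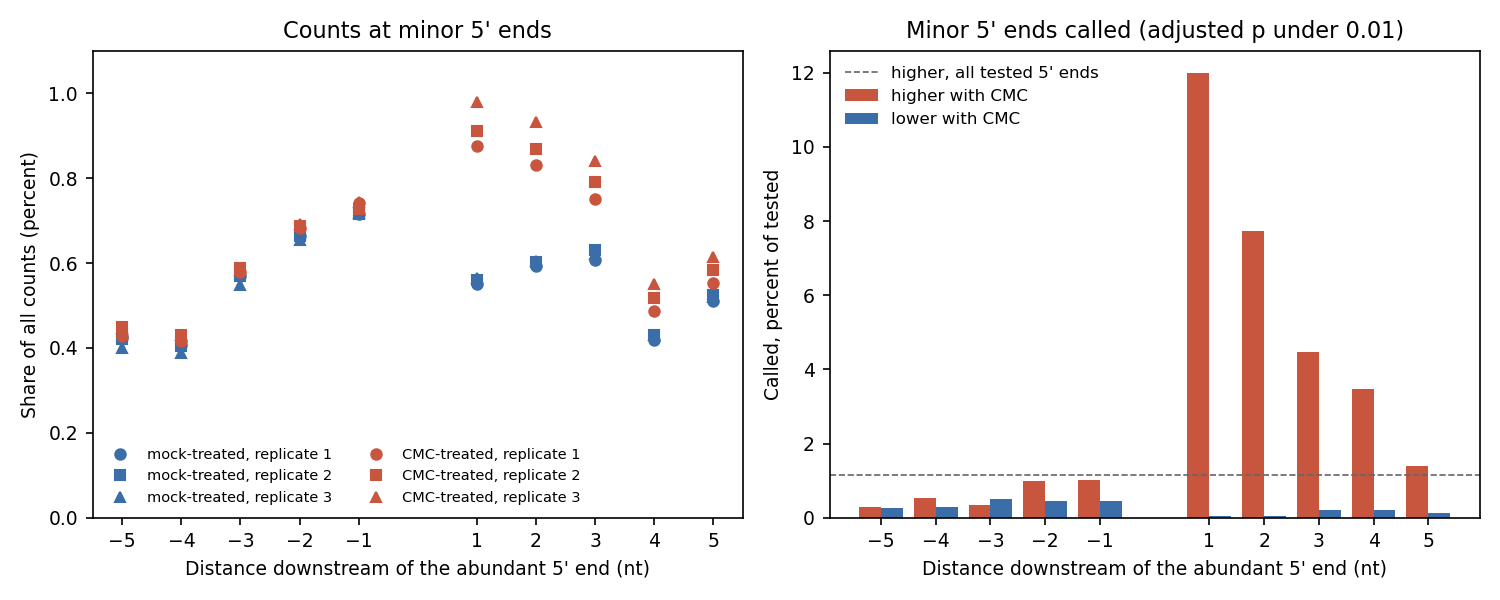
The share of all counts at minor 5′ ends (left, percent, 1 point per sample) and the percent of tested minor ends called higher or lower (right) are plotted against their distance in nt from a 5′ end at least 10 times as abundant, negative values being upstream. The CMC-treated points stand clear of the mock-treated points at 1, 2 and 3 nt downstream, and the share called higher falls from 12% at 1 nt to 1.39% at 5 nt, where the dashed line marks the 1.16% of all tested ends.

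Pairs of an abundant piRNA and a shorter form with the same 3′ end are printed to show the bases by which their 5′ ends differ; the capitals mark the bases outside the shorter locus. Whether reads could be clipped when they were mapped is not given in the sources used here, so the start of a locus may be the end of an alignment and not of the RNA.
chr8:93419670-93419699, minus strand, abundant: Ucuuuccgugugugcugugacauuuugucc
chr8:93419670-93419698, minus strand, 1 nt shorter: cuuuccgugugugcugugacauuuugucc
chr15:83355337-83355365, minus strand, abundant: AUcuucucuugggacuguagacugguugc
chr15:83355337-83355363, minus strand, 2 nt shorter: cuucucuugggacuguagacugguugc
chr12:98447240-98447268, plus strand, abundant: UUUCacucagacuguaaccaugacguuuc
chr12:98447244-98447268, plus strand, 4 nt shorter: acucagacuguaaccaugacguuuc
chr9:67748250-67748278, plus strand, abundant: Uuuucugcuggaggcgaaucacuggaauc
chr9:67748251-67748278, plus strand, 1 nt shorter: uuucugcuggaggcgaaucacuggaauc

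Summed over their 5′ ends, the abundant Gm30132 form of chromosome 8 was at 884, 1037 and 1036 CPM in the mock-treated samples and 576, 590 and 601 CPM in the CMC-treated samples (log2 fold change −0.84, SE 0.10), while the end 1 nt downstream was at 0.449, 0.428 and 0.574 CPM against 5.68, 5.34 and 6.47 CPM (3.50, SE 0.20, edgeR adjusted p 1.6e-15). In 1700001L05Rik, the chromosome 15 lincRNA, the abundant end was at 1318, 1347 and 1496 CPM against 1275, 1085 and 1178 CPM (−0.33, edgeR adjusted p 0.070), and the end 2 nt downstream went from 1.54, 1.30 and 1.37 CPM to 10.8, 13.1 and 16.5 CPM (3.16, SE 0.16). The chromosome 12 pair, in an intron of Kcnk10 and antisense to an exon of 5330409N07Rik, had its minor end at 1.57, 1.06 and 1.42 CPM against 7.12, 6.62 and 10.8 CPM (2.52, SE 0.18). The chromosome 9 pair, antisense to the pseudogene Gm7787, had its minor end at 0.702, 1.23 and 0.849 CPM against 5.32, 5.46 and 5.45 CPM (2.40, SE 0.18), beside an abundant end at 43.6, 42.5 and 38.1 CPM against 47.7, 49.3 and 43.5 CPM (0.08, SE 0.11). In all 4 pairs the minor form did not overlap between the groups.

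Where the sequence was known, the bases outside the shorter locus were rich in uridine. At 1 nt downstream, the base left out was uridine in 133 of 133 higher ends and in 90.3% of 1245 other ends; the median log2 fold change was 0.56 when it was uridine and 0.06 when it was not, and 0 of the 121 ends without uridine were called higher. At 2 nt downstream, position 2 of the abundant form was uridine in 42.3% of 97 higher ends and 13.6% of 1121 others. The share called higher there was 21.1% when position 2 was uridine, 12.1% for cytidine, 5.05% for guanosine and 2.79% for adenosine. When only ends without a 10 times more abundant neighbour were kept, uridine of exonic loci still fell by 1.39 per 100 bases.

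By single loci, 3565 (59.6%) of the 5979 higher loci were 1 to 5 nt shorter at the 5′ end than a locus with the same 3′ end and at least 10 times the counts, against 8.57% of all tested loci and 22 of the 3640 lower loci. Of the 8 largest rises among loci that averaged 100 counts or more, 5 lay 2 or 3 nt downstream of such a form, which held between 10.9 and 104 times their counts. The other 3, all on chromosome 2, lay 2 nt downstream of a locus with 6.87 to 7.25 times their counts. The most abundant of them was a 27-nt locus in the DNA transposon MER94B (chr12:98400625-98400651, minus strand, outside annotated genes), at 1.58, 1.98 and 1.56 CPM in the mock-treated and 227, 236 and 343 CPM in the CMC-treated samples. The 29-nt locus that ends at the same base (chr12:98400625-98400653), the most abundant locus of the comparison, was at 11275, 11233 and 11832 CPM against 11203, 8842 and 10271 CPM (log2 fold change −0.18, SE 0.096, edgeR adjusted p 0.41). The groups overlapped in neither locus, with 11203 CPM just below 11233 in the 29-nt locus. Of the 54 tested MER94B loci 24 were called higher, against 1.07% of all tested loci, and 22 of these were such shortened forms. The repeat as a whole did not pass the test (−0.05, SE 0.058, edgeR adjusted p 0.65).

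At the 5′ end 3 nt downstream of an abundant end on chromosome 7 (7:52909520, plus strand, outside annotated genes) all 9 tested loci were higher, and the end went from 0.604, 0.667 and 0.764 CPM to 58.8, 56.4 and 64.0 CPM (6.45, SE 0.16, edgeR adjusted p 7.9e-26). The abundant end beside it was at 3685, 3626 and 3941 CPM against 3598, 2752 and 2818 CPM (−0.30, SE 0.11, edgeR adjusted p 0.12). On chromosome 2, loci of 27 nt at 151255081-151255107 and 151408648-151408674 (minus strand) and at 151325739-151325765 (plus strand) held near-equal counts in each CMC-treated sample, 755, 545 and 616, 806, 545 and 679, and 747, 503 and 626. How reads that match several places were counted is not given in the sources used here, so these may not be separate small RNAs.

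The largest fall among 5′ ends that averaged 100 counts or more was at 5:113348960 (plus strand, in the LTR element RMER15, outside annotated genes), whose sequence was not known. It was at 8.63, 4.26 and 5.03 CPM in the mock-treated samples and, with 2, 3 and 3 counts, at 0.0416, 0.117 and 0.104 CPM in the CMC-treated samples (−6.18, SE 0.35, edgeR adjusted p 1.6e-15). A locus of 20 nt held 88.5% of its counts. Of the next 5 falls, which were much smaller, those at 17:66213637 (plus strand, −1.75, SE 0.16) and 12:98425055 (plus strand, −1.72, SE 0.17) also lay outside annotated genes and had no known sequence. The other 3 held 21, 20 and 19 uridines in their leading locus. At 12:98446630 (plus strand, 21 uridines, antisense to an exon of 5330409N07Rik) the 5′ end went from 5.07, 5.98 and 6.53 CPM to 1.62, 0.934 and 1.17 CPM (−2.18, SE 0.18, edgeR adjusted p 8.0e-11). At 15:83355924 (minus strand, 20 uridines, in an exon of 1700001L05Rik) it went from 6.56, 5.76 and 5.87 CPM to 2.20, 1.67 and 1.17 CPM (−1.80, SE 0.18). At 10:85765350 (plus strand, 19 uridines, antisense to the pseudogenes Gm47365 and Gm47366) it went from 4.75, 4.62 and 4.22 CPM to 1.64, 1.56 and 0.966 CPM (−1.68, SE 0.18). The groups did not overlap at any of these 6 ends.

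The 8 largest falls of single loci with such an average ran from −5.98 to −1.70, and 4 of them started at the ends without a sequence just named. These were the 20-nt locus in RMER15 (−5.98, SE 0.35), loci of 31 and 28 nt at 17:66213637 (−1.90 and −1.70) and the 30-nt locus at 12:98425055 (−1.70). The other falls were a 17-nt locus (chr2:92550582-92550598, plus strand, outside annotated genes), at 19.04, 17.6 and 16.4 CPM against 4.43, 5.96 and 5.35 CPM (−1.77, SE 0.14), a 31-nt locus with 19 uridines in 1700001L05Rik (chr15:83355893-83355923, minus strand, −1.73) and the locus of 18 uridines printed here because it is the only one of the 8 whose sequence can be shown, with uridine in capitals.
chr12:98447498-98447526, plus strand, lower: UUUgUUUgUUUUUgUUgacUUUggaUgUg
It went from 6.95, 6.63 and 7.21 CPM to 2.30, 2.29 and 1.52 CPM (−1.75, SE 0.17, edgeR adjusted p 3.5e-10). The last, chr14:24104202-24104231 (plus strand, outside annotated genes), varied within the mock-treated group, at 6.86, 3.67 and 1.84 CPM against 1.34, 1.42 and 0.986 CPM (−1.70, SE 0.26). It was not called by DESeq2 (adjusted p 0.077) or when only loci averaging 100 counts were tested with edgeR (adjusted p 0.012).

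The 10 most abundant loci were not called, with log2 fold changes from −0.30 to 0.05 and the smallest adjusted p 0.11 (edgeR). The 3 of them with a sequence held 7, 7 and 8 uridines. These were a 29-nt and a 31-nt locus from 12:98447235 on the plus strand, and chr6:85112878-85112907 in an exon of the lincRNA Gm5878, at 3019, 2942 and 3123 CPM against 3110, 2489 and 2785 CPM.

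Of the 159497 5′ ends with a tested locus, 2047 had a lower locus, 4118 a higher locus and 41 both. Of the 302942 3′ ends, 2967 had a lower locus, 4591 a higher one and 336 both. No test was made of these counts. With every sample thinned to 24154811 counts, the leading locus of each 3′ end held 79.7, 79.4 and 79.1% of the counts in the mock-treated and 78.5, 78.2 and 77.4% in the CMC-treated samples, and each 3′ end had 1.94, 1.96 and 1.97 loci against 2.02, 2.03 and 2.06. Both differences reached the smallest p of the exact test (0.1), without overlap. The leading locus of each 5′ end went from 49.5, 49.7 and 49.2% to 48.5, 48.2 and 47.9% (exact p = 0.1), whereas the number of loci per 5′ end was 2.81, 2.82 and 2.84 against 2.84, 2.86 and 2.85, which overlapped (exact p = 0.2).

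A slightly larger share of the CMC-treated small RNAs was 25 to 28 nt long. The 30-nt class was the largest in all 6 samples, with 25.96, 25.6 and 24.7% of the counts in the mock-treated and 24.8, 24.7 and 23.2% in the CMC-treated samples, which overlap, and the 29-nt class followed. Loci of 25 to 28 nt together held 28, 27.99 and 28.5% against 29.97, 29.98 and 30.3%, and loci of 29 to 33 nt 65.3, 64.9 and 63.1% against 63.0, 62.3 and 59.9%. Neither range overlapped (exact p = 0.1 for each). The 27-nt class, at 7.61, 7.60 and 7.64% against 8.26, 8.31 and 8.30%, was the only 1 of 20 lengths called (5.0% higher, 0.0% lower; log2 fold change 0.12, SE 0.016, edgeR adjusted p 0.0055). With the replicate block 10 lengths were called, 23 to 28 nt higher and 29 to 32 nt lower. The 27-nt call was lost with TMM, with DESeq2's size factors and with DESeq2. It was also lost when any sample was left out, so the count of called lengths rested on the fit. Loci of 14 to 18 nt held 0.434, 0.575 and 0.580% against 0.293, 0.494 and 0.717% and varied more within the CMC-treated group than between the groups.

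**Figure D4:**
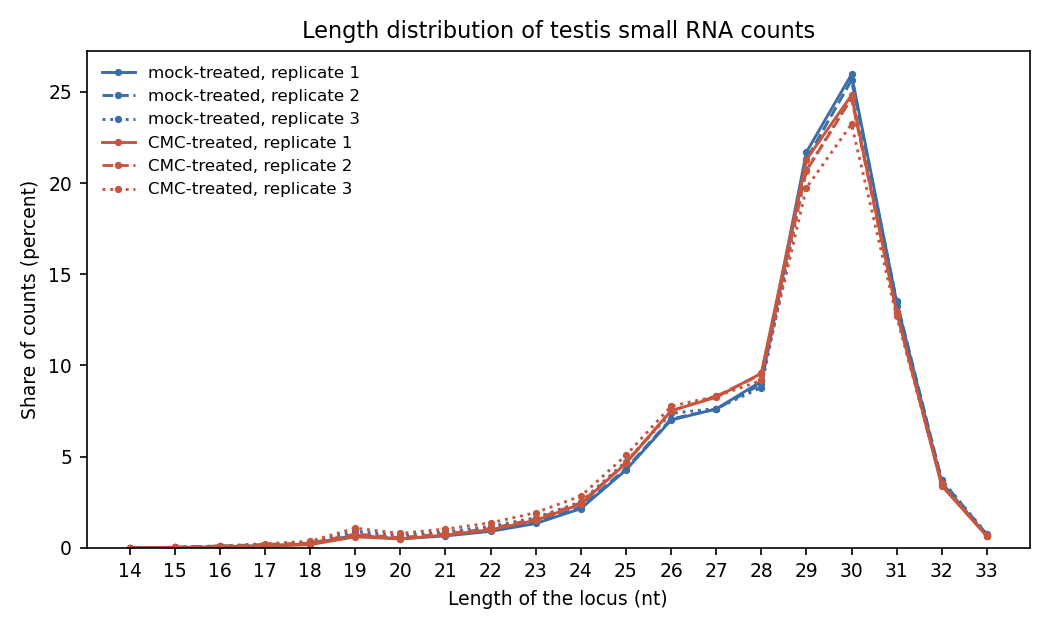
The percent of each sample's counts (vertical axis) is plotted by locus length from 14 to 33 nt (horizontal axis), a line per sample. All 6 lines peak at 30 nt, with a shoulder at 26 to 28 nt where the CMC-treated lines lie above the mock-treated lines by less than 1 point.

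Called loci followed the lengths. Of the loci of 24 to 28 nt, 839 were called lower and 3918 higher (0.375 and 1.75% of those tested), and of the loci of 29 to 33 nt 2672 lower and 1147 higher (1.02 and 0.437%). Within exonic loci of 25 to 31 nt, the mean share of 29 to 31 nt was lower after CMC in each of 6 bands of uridine content. The difference ran from −1.02 points (30 to under 35 uridines per 100 bases, where the groups overlapped) to −2.76 points (40 or more, from 70.6, 70.2 and 69.4% to 68.4, 67.5 and 66.1%).

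At fixed 5′ ends the mean length was also slightly lower. Over 35016 ends with at least 600 counts the median difference was −0.050 nt, and 66.5% had a lower mean length after CMC. Of the 35016 ends, 5338 had every CMC-treated sample below every mock-treated sample, and 1000 had every CMC-treated sample above. Such separation of 3 against 3 samples reaches only p = 0.1 in the two-sided exact permutation test. Some of these ends can thus be separate by chance, and their numbers were not tested. limma called 23 ends shorter (0.0657% of those tested) and 0 longer, 41 with the replicate block (40 shorter) and 308 within loci of 24 to 33 nt (301 shorter and 7 longer). When a sample was left out, 3 calls were made without either of mock-treated replicates 1 and 2 or without CMC-treated replicate 2. There were 6 without CMC-treated replicate 1, 6 without mock-treated replicate 3 and 12 without CMC-treated replicate 3. Of the 23, 20 lay 1 to 5 nt downstream of an end at least 10 times as abundant, against 5.25% of those tested. The largest was at 5:135162217 (plus strand, in the UTR of Tbl2), with mean lengths of 29.2, 29.1 and 29.1 nt in the mock-treated and 26.5, 26.2 and 25.96 nt in the CMC-treated samples (−2.91, SE 0.14, limma adjusted p 0.0020), 2 nt downstream of an end with 166 times its counts. The end at 8:93419697 (minus strand, in Gm30132) went from 29.9, 30.1 and 30.7 nt to 27.8, 27.7 and 27.7 nt (−2.50, SE 0.19, limma adjusted p 0.0097), 2 nt downstream of the abundant end printed above, and 7:69902377 (minus strand, outside annotated genes) from 28.1, 27.6 and 27.4 nt to 25.3, 25.2 and 25.04 nt (−2.48, SE 0.19, limma adjusted p 0.0097). The end at 15:83355362, in 1700001L05Rik, went from 28.5, 28.4 and 28.4 nt to 26.1, 26.1 and 25.8 nt (−2.41, SE 0.085), 3 nt downstream of the abundant end printed above. All 4 ends lost their call in each fit with 3 calls, and that of Tbl2 also without mock-treated replicate 3. The call at 7:69902377 was lost without any 1 sample, and that at 8:93419697 without any except mock-treated replicate 3. The groups overlapped at none of the 4. Ends without such a neighbour had a median difference of −0.047 nt.

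Among chromosomes, chromosome 4 fell. It held 5.50, 5.52 and 5.45% of the counts in the mock-treated and 5.22, 5.15 and 5.07% in the CMC-treated samples (log2 fold change −0.09, SE 0.012, edgeR adjusted p 0.00011), without overlap, and was the only chromosome of 20 called (5.0% lower, 0.0% higher). Its call was lost without mock-treated replicate 2. Chromosome 10, at 5.35, 5.36 and 5.37% against 5.46, 5.51 and 5.52%, and chromosome 14, at 4.26, 4.28 and 4.25% against 4.34, 4.37 and 4.43%, did not overlap either and had an adjusted p of 0.025 each with edgeR; both were called with the replicate block, which called 3 chromosomes. Chromosomes 1, 5, 11 and 15 did not overlap and were not called, with chromosome 15 at 7.64, 7.59 and 7.59% against 7.70, 7.75 and 7.77% (edgeR adjusted p 0.060). In the fit of all tested loci, 8.76% of the loci on chromosome 4 that averaged 100 counts or more were called lower. The share was 9.24% on chromosome 11, 2.87% on chromosome 10 and 2.83% on chromosome 17, against 4.998% over all chromosomes. Without CMC-treated replicate 1 edgeR called 4 chromosomes.

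The strands did not separate the groups. The plus strand held 47.7, 47.7 and 47.9% of the counts in the mock-treated and 48.0, 47.9 and 48.0% in the CMC-treated samples, which overlap (exact p = 0.2), and 0.640% of plus-strand and 0.667% of minus-strand loci were called lower, 1.04 and 1.11% higher. Most clusters were read from a single strand: of 640 clusters with at least 600 counts, 517 had under 5% of their counts on the minor strand and 52 had 20% or more. The minor strands together held 17.6, 17.7 and 17.9% against 17.7, 17.6 and 17.9% (difference 0.02 points, exact p = 0.9). None of 776 cluster strands was called by edgeR (0.0% lower and higher), although 166 had an unadjusted p under 0.05. DESeq2 called 24, and edgeR called 7 with total counts, 33 with the replicate block (17 lower and 16 higher), 49 within loci of 24 to 33 nt (20 lower and 29 higher) and 3 without CMC-treated replicate 1.

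The 10-nt overlap between 5′ ends on opposite strands, which marks the ping-pong cycle of secondary piRNAs, stood out in all 6 samples. After thinning, 13.9, 14.3 and 13.5% of the counts in the mock-treated and 13.8, 13.8 and 15.4% in the CMC-treated samples lay at a 5′ end with such a partner. The groups overlapped (difference 0.44 points, exact p = 0.7), and without CMC-treated replicate 3 the difference was −0.07. Other overlaps from 1 to 30 nt were found for 2.01 to 5.09% of the counts, apart from 29 nt, at 9.64 to 14.2%.

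Of the repeat names, 534 of 618 had more than 20 counts. edgeR called 20 lower (3.75%) and 10 higher (1.87%), and with the replicate block 31 lower and 20 higher. DESeq2 called 25 lower and 21 higher, and edgeR without CMC-treated replicate 1 called 26 and 16. Without mock-treated replicate 2 there were 10 lower and 0 higher, and without mock-treated replicate 3 12 lower and 3 higher. By class, 12 of 100 LINE names were lower and 3 higher, 3 of 333 LTR names lower and 5 higher, 5 of 72 DNA transposon names lower and 2 higher, and of 26 SINE names none. With the replicate block 6 LTR names were lower and 13 higher, and 1 SINE name was lower and 1 higher. LINEs are retrotransposons that code for their own reverse transcriptase, and 11 of the 12 lower LINE names belong to the L1 family, as do 80 of the 100 tested. The class as a whole held 3.74, 3.77 and 3.75% of the counts against 3.48, 3.54 and 3.51% (exact p = 0.1), and SINEs, which depend on LINE proteins, 2.16, 2.14 and 2.09% against 2.28, 2.33 and 2.27% (exact p = 0.1), both without overlap.

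Among names with an average of at least 100 counts, the largest falls were in L1MC5a, from 525, 534 and 482 CPM to 349, 354 and 283 CPM (−0.64, SE 0.072, edgeR adjusted p 9.3e-05), and L1ME3B, from 92.7, 96.1 and 100.3 CPM to 70.2, 57.9 and 61.3 CPM (−0.61, SE 0.066). These are old L1 subfamilies, and 81.1% of L1MC5a counts came from a single 5′ end. MER45A, a hAT DNA transposon, went from 65.6, 66.4 and 65.4 CPM to 51.2, 46.7 and 41.3 CPM (−0.50, SE 0.068), and RMER3D-int, an internal part of an endogenous retrovirus, from 956, 1065 and 1027 CPM to 789, 703 and 739 CPM (−0.45, SE 0.050). Lx9, the most abundant of the called names, fell from 4064, 4204 and 4315 CPM to 3523, 3181 and 3208 CPM (−0.34, SE 0.045). Of its 1670 tested loci 48 were lower and 7 higher, where 0.654% of all tested loci were lower and 1.07% higher. In each of these 5 names the groups did not overlap.

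The other lower names with at least 100 counts on average were MamRep1894, X6A, L1M4a1, MTE2b, L1MC, L1MD2 and Zaphod, between −0.58 and −0.29, among the 12 largest falls, and 7 more between −0.27 and −0.18. Charlie4a was called at −1.56 with an average of 12.3 counts. The rises were led by RLTR13D1, an LTR, from 29.6, 29.2 and 28.3 CPM to 43.3, 54.3 and 39.9 CPM (0.66, SE 0.092, edgeR adjusted p 0.00051), with 93.6% of its counts at a single 5′ end. L1ME3 (0.40), Lx10 (0.34), Charlie19a (0.34), MER5A (0.34), MLT1J (0.24), L1MC4 (0.23), MTB (0.22), RLTR30B (0.21) and RLTR9A (0.18) followed. L1 names thus stood on both sides, and Lx10 went from 957, 906 and 841 CPM to 1198, 1206 and 1018 CPM. Without mock-treated replicate 2 all 10 of these rises lost their call, and without mock-treated replicate 3 all but RLTR13D1, Charlie19a and MER5A. Of the falls, MamRep1894 and Zaphod lost it without either sample.

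**Figure D5:**
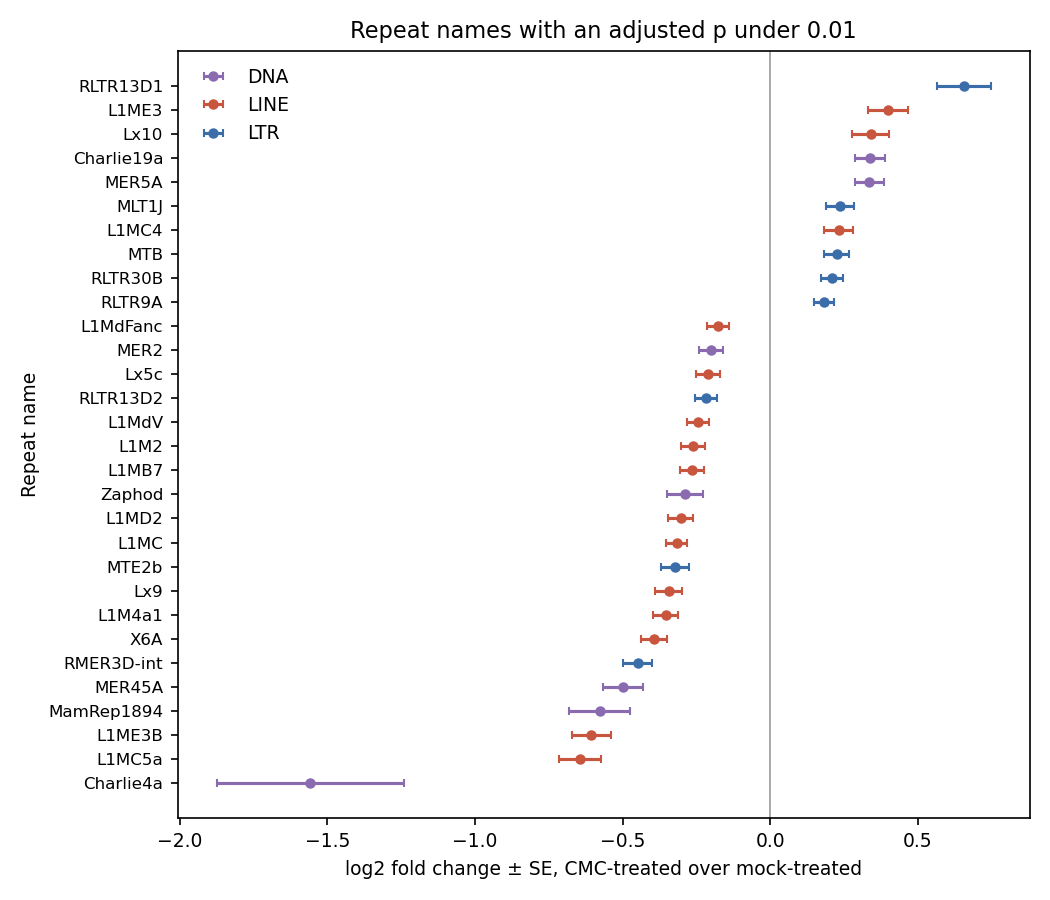
The log2 fold change with its standard error (horizontal axis) is plotted for the 30 repeat names with an adjusted p under 0.01 (vertical axis), coloured by class. The names run from Charlie4a at −1.56, which has few counts, to RLTR13D1 at 0.66, and 12 of the 20 lower names are LINEs.

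Of the 10 most abundant repeat names, Lx9 and L1M2 (−0.26, SE 0.041) were called, L1M2 not without mock-treated replicate 2 or 3. MER94B, L2c, MurERV4, ORR1F-int, RMER17A2, ORR1F and MIRb lay between −0.08 and 0.08. MIRc, a SINE, went from 4390, 4212 and 3929 CPM to 5179, 5200 and 4495 CPM without overlap (0.25, SE 0.058) and had an edgeR adjusted p of 0.015, or 0.00040 with the replicate block.

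Uridine content could be given for 19 repeat names with an average of at least 100 counts and a sequence for at least 80% of their counts. The 5 names with 40.1 to 45.6 uridines per 100 bases, MARNA, X6A, MamRTE1, MLT1N2 and L1MD2, all had a log2 fold change below 0, from −0.48 to −0.26, and X6A and L1MD2 were called. The 10 names with 22.6 to 29.9 uridines per 100 bases lay between −0.25 and 0.21, 4 of them below 0, and none was called. The 4 names between these, with 35.3 to 37.6 uridines per 100 bases, lay between −0.25 and 0.13, and none was called. With the replicate block MARNA was called (edgeR adjusted p 0.0043, against 0.019 without it), as were MLT1C (0.0052, against 0.015) and MMERGLN-int (0.0056, against 0.060) of these 4. X6A, a LINE of the CR1 family, went from 123, 129.7 and 126.8 CPM to 99.8, 95.0 and 94.1 CPM, and RLTR25A, an LTR with 23.3 uridines per 100 bases, had the highest value (0.21, SE 0.063, edgeR adjusted p 0.046).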

How the data were processed

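Small RNA from CMC-treated and mock-treated mouse testis was made into libraries with the NEBNext small RNA kit. The authors trimmed adapters with Cutadapt, set aside tRNA fragments, mapped the rest to mm10 with Bowtie2, allowing up to 3 mismatches, and intersected reads with repeats and piRNA clusters with bedtools. Whether reads could be clipped at their ends, and how reads matching several places were counted, is not given in the sources used here. The deposited values are raw counts per locus, not normalized, and were used as deposited. 7286 loci are listed under 2 repeat names (0.115% of counts) and were kept under both.

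Counts were joined on locus, summed by length, chromosome, strand, 5′ end, cluster strand and repeat name, and tested with edgeR 4.0.16 (R 4.3.3, quasi-likelihood test, TMM, or total counts for lengths and chromosomes, group as the only term), calling features at a Benjamini-Hochberg adjusted p under 0.01. Features needed more than 20 counts in total, and cluster strands an average of 100 per mock-treated sample. SE is the log2 fold change divided by the root of the test statistic. Mean length at 5′ ends was tested with limma 3.58.1. Single shares were compared with exact permutation tests, two-sided, whose smallest p is 0.1. Alternatives were DESeq2 1.42.0, other scalings and minimums, each sample left out and the replicate number as a block. The scripts were tested on simulated data. Total counts were 35618956, 58399368 and 40063216 in the mock-treated and 48909154, 24154811 and 27342628 in the CMC-treated samples. All tests rest on the spread of only 3 samples per group.

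Deviations of same-numbered samples correlated at 0.11, 0.14 and 0.28 over loci with an average above 50 counts, all over 0.1, and at 0.031, 0.049 and 0.12 above 10 counts. The protocol, written for plant RNA, divides each ligated RNA between CMC and mock treatment, and the labels do not say that the mouse numbers mark such pairs. Values with the block are given where they change a call or a count by more than 1.5 times.

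Loci named are the 8 largest falls and rises called with an average of at least 100 counts and 5′ ends the 6 largest, each with no overlap of the groups, beside the most abundant; repeat names are the 12 largest falls and rises; for mean length, the 4 largest in each direction, of which none was longer. Loci outside this rule were chosen after their values were seen. Printed loci are at most 30 nt, outside UTRs and chromosome 18. Sequences and annotations are from GENCODE M21 (GRCm38, the mm10 assembly) exons, read on the strand of the locus with U for T. Comparisons and lists were chosen with earlier results of these data known, and the fit by number of bases, the subsets of uridine content and the distances between 5′ ends were added after the data were seen.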

Additional observations from a re-analysis of the deposited data

How the results depend on the processing

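The lower uridine content of exonic loci after CMC kept its direction, between −1.47 and −1.31 per 100 bases when a sample was left out, −1.39 for loci of 24 to 33 nt and −1.48 without the 1000 most abundant loci. Its sign-flip p over pairs by replicate number was 0.25, the smallest that 3 pairs allow. Called loci numbered 6346 with DESeq2, 3645 at an average of 100 counts or more, 6383 with no minimum and 4506 to 11048 without 1 sample; 5′ ends 2625, 3329 (no minimum) and 2913 to 7049 likewise. Called repeat names numbered 46 with DESeq2, 51 with the replicate block and 10 to 42 without 1 sample. Called lengths numbered 0 with TMM, DESeq2's size factors, DESeq2, loci of more than 20 counts, without the 1000 most abundant loci and, in all 6 cases, without 1 sample, against 10 with the block and 3 within 24 to 33 nt. Called chromosomes numbered 3 with DESeq2, the block or without the 1000 most abundant loci, and 0 to 4 without 1 sample. Called cluster strands numbered 7 with total counts, 24 with DESeq2, 33 with the block, 5 with no minimum, 49 within 24 to 33 nt and 0 to 3 without 1 sample. 5′ ends called for mean length numbered 41 with the block, 9 without a trend, 6 at 6000 counts, 308 within 24 to 33 nt and 3 to 12 without 1 sample. The cause of these differences was not tested. Beyond these counts and the calls given in the report, the block changed no call among the features named by rule. Without 1 sample, between 1 and 13 of the 23 called repeat names chosen by rule (not of all 30 called) and between 2 and 4 of the 4 named ends for mean length lost their call.

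The minor-strand difference was −0.0059 within 24 to 33 nt, −0.0022 for loci of more than 20 counts and −0.062 to 0.094 without 1 sample. The 10-nt overlap difference was −1.64 on counts as deposited, which differ in depth, and −0.074 to 0.70 without 1 sample. It was 0.84 without the 1000 most abundant loci (exact p = 0.3). Among single features that were not called, signs turned in these ranges without 1 sample, −0.12 to 0.019 for MER94B, −0.030 to 0.0072 for RMER17A2 (0.017 with total counts), −0.69 to 0.12 for length 16, −0.45 to 0.21 for length 17, −0.28 to 0.25 for length 18, −0.19 to 0.24 for length 19, −0.10 to 0.26 for length 20, −0.0090 to 0.30 for length 21, −0.032 to 0.010 for chromosome 12, −0.038 to 0.0045 for chromosome 18, −0.041 to 0.0030 for chromosome X, −0.081 to 0.12 for the 5′ end 12:98447235 and −0.077 to 0.0024 for 18:67038739. Length 18 was also at −0.033 with TMM, −0.058 with DESeq2's size factors and with DESeq2, −0.027 with the block, −0.018 for loci of more than 20 counts and −0.0078 without the 1000 most abundant loci, and length 19 at −0.0091 with DESeq2's size factors and with DESeq2. Without the 1000 most abundant loci chromosome 5 was at 0.0046 and chromosome 9 at −0.00074. The 5′ end 12:98447235 was at −0.073 with no minimum, and 18:67038739 at 0.075 with total counts and 0.026 at an average of 100 counts or more. Loci with few counts could be called only for large changes, and sequence was known for exonic loci alone.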
